A study of Sus scrofa with 16 samples.

Results

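The genes described here encode the proteins of the cytosolic ribosome, and their mRNA was counted in whole pituitaries of 16 Złotnicka White gilts. Members were all genes whose deposited symbol had the form of a cytosolic ribosomal protein name (RPL, RPLP or RPS with a number) and that had at least 10 counts in 8 or more pigs. This gave 48 genes of the 25880 in the count table, 25 of the large subunit (RPL) and 23 of the small subunit (RPS), and every one had at least 10 counts in all 16 pigs. The symbol rule itself uses no measured value, and no gene failed the count minimum. The members were, however, chosen with earlier results of these data known. The 8 LFC pigs had low and the 8 HFC pigs high feed conversion, which is the feed eaten per unit of weight gained, so that an HFC pig needed more feed for the same gain. All were females, labelled with an age of 180 days and a slaughter weight of 100 kg, with no treatment or genotype named. The study states that pigs of high feed conversion reached 100 kg later, and that those of this breed were fatter. The shared age label therefore does not mean that the groups were matched for age. They were unrelated, came from different farms and were kept at 1 test station under the same housing and feed. The labels give the tissue as whole pituitary, a mixture of cell types, so that fewer cells of a type and less RNA per cell cannot be told apart.

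Ribosomes translate mRNA into protein, and each is built from a large and a small subunit of ribosomal RNA and proteins. The small subunit reads the mRNA and the large subunit joins the amino acids. Cells need ribosomal proteins in near equal amounts, and their mRNAs are known to be made and translated together, in large part through a pyrimidine tract at the start of the mRNA that responds to growth signals. In the pituitary, endocrine cells use ribosomes to make large amounts of secreted hormone.

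Between 6010629 and 11794256 counts were assigned to genes per pig. The somatotroph hormone GH1 lay between 23064 and 85944 CPM (TMM-scaled counts relative to library size) and the lactotroph hormone PRL between 15501 and 112503 CPM, so that the markers of the anterior lobe were abundant in every pig. GFAP, a marker of posterior lobe glia, ranged from 1.99 to 1487 CPM. Of 26 markers of pituitary and other cells, 20 were found among the genes tested and none of these was at 0 in any pig. LHB, GNRHR, MOBP, S100B, SOX2 and CLDN5 were not found there. The search was by gene name and some IDs had no name, so a marker not found need not be unexpressed. The libraries LFC4, LFC6 and HFC5 (group and pig number) stood apart over all genes: limma's sample quality weights were 0.505, 0.514 and 0.373, against 0.807 to 1.77 in the other 13. Their totals of 7439215, 6258650 and 6010629 counts lay in the lower part of the range over all pigs. LFC1 and HFC2, however, had fewer counts than LFC4 (7328500 and 7000177) and the highest weights (1.77 and 1.69). Only in LFC4, LFC6 and HFC5 did genes with longer spans in the genome read lower by more than 0.2 on the log2 scale per 10-fold span (-0.26, -0.27 and -0.21, against -0.07 to 0.21 in the others). Results are therefore given with and without them.

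The members held 2.70% to 7.26% of all counts of a pig. The share was 4.63% ± 1.23 (SD, n = 8) in the LFC pigs, with a lowest, median and highest value of 3.35%, 4.42% and 7.26%. In the HFC pigs it was 3.77% ± 1.28 (SD, n = 8), with 2.70%, 3.33% and 6.82%. The highest shares were those of LFC4 (95% Wilson interval 7.24% to 7.28%, counting error only) and HFC5 (6.80% to 6.84%), and the ranges of the groups overlapped.

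The mean log2(CPM + 1) of the RPL genes was 9.53 ± 0.40 (SD, n = 8) in the LFC pigs, with a lowest, median and highest value of 9.03, 9.46 and 10.34. In the HFC pigs it was 9.23 ± 0.46 (SD, n = 8), with 8.70, 9.13 and 10.23. The RPS genes gave 9.52 ± 0.42 (SD, n = 8) in the LFC pigs, with 8.98, 9.45 and 10.31. Their HFC values were 9.19 ± 0.46 (SD, n = 8), with 8.77, 9.05 and 10.20. In both subunits the pig LFC4 was the highest of all 16, followed by HFC5 and then LFC6. The lowest was HFC1 in both. The difference between group means was smaller than the SD within either group.

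**Figure D1:**
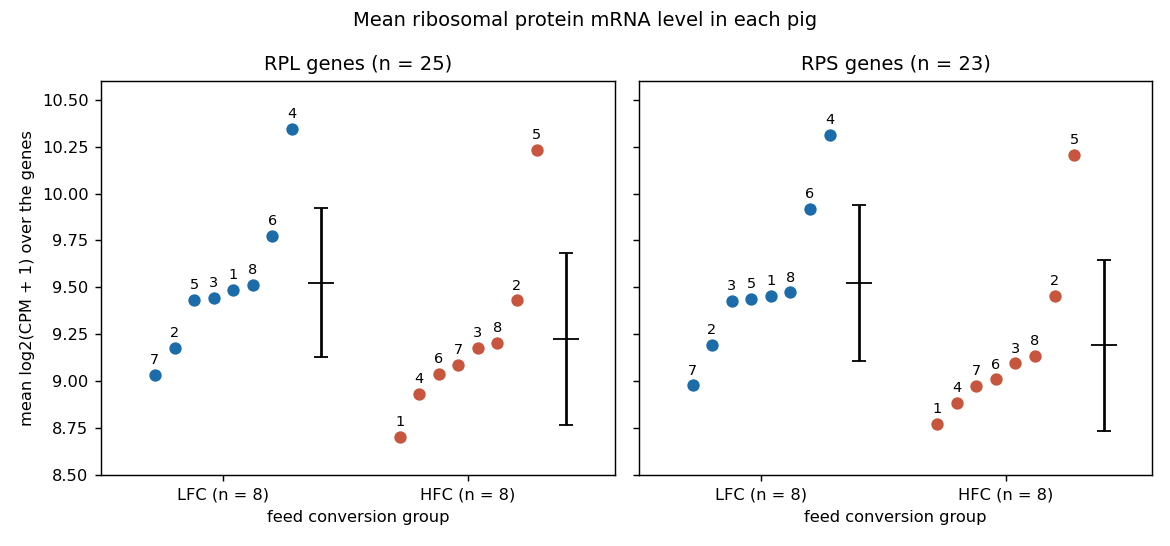
Mean log2(CPM + 1) of the 25 RPL genes (left) and the 23 RPS genes (right) in each pig, by feed conversion group, with the pig number above each point and the group mean ± SD as a black bar. LFC4 (10.34 and 10.31) and HFC5 (10.23 and 10.20) are the highest pigs of their groups in both panels.

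The 2 subunits moved in step. The RPL mean minus the RPS mean of a pig was 0.00 ± 0.06 (SD, n = 8) on the log2 scale for LFC and 0.03 ± 0.06 (SD, n = 8) for HFC, a difference of 0.03 that is smaller than the spread between pigs. Its range over all pigs was -0.15 to 0.11, with LFC6 as the lowest. The highest values were those of HFC7 (0.11), HFC3 (0.08), HFC8 (0.07), LFC7 (0.06) and HFC4 (0.05). These pigs also had the lowest levels of RPS21, at 5.10 to 14.6 CPM, against 32.7 CPM or more in the others. RPS21 enters the RPS mean, and its value is uncertain. How far this gene alone set the RPL minus RPS values was not tested.

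At every one of the 48 genes the fitted level was lower in the HFC than in the LFC pigs, but edgeR called none of them. At an adjusted p up to 0.05 with a 1.3-fold difference or more, 0 of 25 RPL and 0 of 23 RPS genes were called, against 0.0% of the 13621 genes tested (quasi-likelihood test of edgeR, Benjamini-Hochberg adjusted). DESeq2 called 29 of 13446 genes with an adjusted p (0.216%) and 0 of the 48. A log2 fold change below 0, lower in the HFC pigs, was found for 25 of 25 RPL and 23 of 23 RPS genes, against 52.1% of all genes tested. The members varied together across pigs, so that 48 equal signs are not 48 separate observations. The median log2 fold change was -0.28 for the RPL and -0.25 for the RPS genes, against -0.01 over all genes.

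At an unadjusted p up to 0.05, 1 RPL and 1 RPS gene were lower in the HFC pigs and none was higher, while 4.41% of all genes tested were lower at that threshold. DESeq2 also gave 1 and 1. The counts were 3 and 5 with limma voom and sample quality weights (9.01% of all genes), 2 and 5 after scaling by total library size (5.51%), and 1 and 2 with the replicate number as a block (3.65%). In the edgeR fit the members' share of 4.17% was near the background of 4.41%. Adjusted p-values of the members ran from 0.418 to 0.819. The standard errors (SE) of the log2 fold changes were between 0.09 and 0.54, with a median of 0.21 that is close to the differences themselves.

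**Figure D2:**
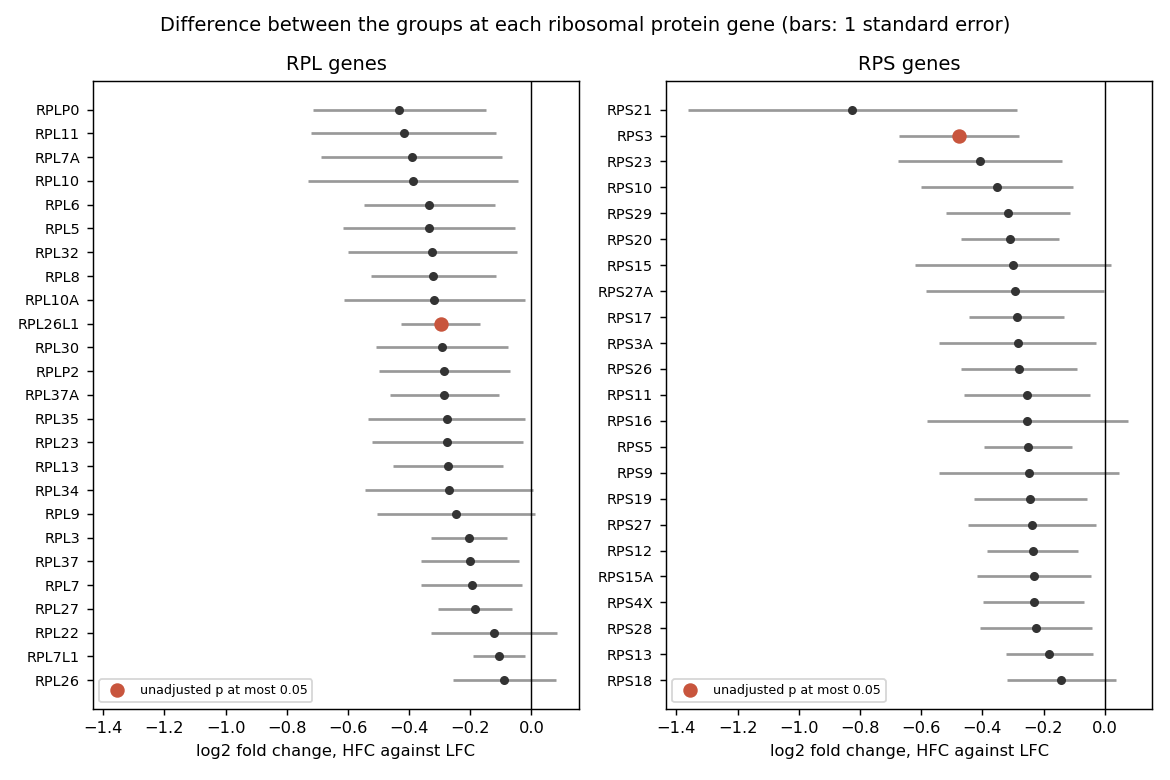
Log2 fold change (HFC against LFC, edgeR) of each RPL gene (left) and RPS gene (right), with bars of 1 standard error and red points for an unadjusted p up to 0.05. Every point lies below 0, and only RPL26L1 and RPS3 are red.

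RPS3, a small subunit protein at the site where mRNA enters that also takes part in DNA repair, lies on chromosome 9 (9618623 to 9631001, Sscrofa11.1). It had a lowest, median and highest level of 1538, 1796 and 3097 CPM in the LFC pigs and of 1066, 1295 and 2586 CPM in the HFC pigs. Of the 8 HFC pigs, 7 lay below the LFC median and only HFC5 lay far above it, and the groups overlapped. The log2 fold change was -0.48 (SE 0.20, edgeR, unadjusted p = 0.0258, adjusted p = 0.418), and the exact two-sided permutation test over 8 against 8 pigs gave p = 0.0300. Leaving out LFC4 gave an exact p of 0.0581, and leaving out LFC6, HFC1, HFC4 or HFC6 each gave a p between 0.0539 and 0.0572.

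RPL26L1 is a copy of RPL26 that differs from it in few residues. It lies on chromosome 16 (51267479 to 51276696). Its CPM were 51.7, 61.4 and 89.9 (lowest, median and highest) in the LFC pigs and 41.5, 50.01 and 76.5 in the HFC pigs, and the highest LFC pig was LFC6. The groups overlapped, with 7 HFC pigs below the LFC median. The log2 fold change was -0.30 (SE 0.13, edgeR, unadjusted p = 0.0321, adjusted p = 0.426, exact permutation test p = 0.0409). The exact p rose above 0.05 when any of 10 pigs was left out, LFC4 (0.0769) and LFC6 (0.0830) among them.

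The stalk is the arm of the large subunit that recruits the translation factors with GTPase activity. Its base protein RPLP0 had the largest difference of the RPL genes in the fit of all 16 pigs, though not without HFC5 (RPL10, -0.80), without LFC4 (RPL26L1, -0.26) or without the 3 libraries of low weight (RPL11). RPLP0 (chromosome 14, 40219124 to 40223943) had 987, 1578 and 3405 CPM as lowest, median and highest LFC value and 862, 989 and 3016 CPM in the HFC pigs. The HFC median was 62.6% of the LFC median, and the highest pigs of the groups were LFC4 and HFC5. The log2 fold change was -0.43 (SE 0.28, edgeR, adjusted p = 0.506), and it was -0.21 without LFC4 and -0.70 without HFC5. RPLP2 (chromosome 2, 507896 to 510700) had a log2 fold change of -0.28 (SE 0.21). RPLP1 had no symbol in the deposited comparison. It was named from the reference table, and its log2 fold change was -0.33 (SE 0.23).

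RPL5 and RPL11 bind a small ribosomal RNA together and, when ribosome assembly fails, hold back MDM2 so that p53 accumulates. RPL5 (chromosome 4, 124358816 to 124368272) had 1256, 1823 and 3788 CPM in the LFC pigs and 1001, 1270 and 3932 CPM in the HFC pigs. RPL11 (chromosome 6, 81522760 to 81526880) had 641, 1008 and 2245 CPM in the LFC pigs and 422, 666 and 2093 CPM in the HFC pigs. In both genes 7 of 8 HFC pigs were below the LFC median and HFC5 was far above it. Their log2 fold changes were -0.33 (SE 0.28) and -0.42 (SE 0.30), within 1.5 standard errors of 0. Without LFC4 they were -0.13 and -0.18, and without HFC5 they were -0.65 and -0.75.

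The RPL genes with the most counts were RPL7A, RPL10, RPL5 and RPL6. CPM are not divided by the length of the mRNA, so their order is an order of reads and not of mRNA molecules. RPL7A (chromosome 1, 272961706 to 272970496) had 1544, 2417 and 5677 CPM in the LFC pigs and 1299, 1703 and 5235 CPM in the HFC pigs. RPL10 on the X chromosome (124926772 to 124931450) had 1146, 1781 and 4581 CPM in the LFC pigs and 915, 1164 and 4597 CPM in the HFC pigs. The medians were lower in the HFC pigs, the groups overlapped, and the log2 fold changes of -0.39 for each had SEs of 0.30 and 0.34. Without LFC4 these were -0.15 (RPL7A) and -0.11 (RPL10), and without HFC5 they were -0.70 and -0.80. RPL6 (chromosome 14, 39301852 to 39312319) had 1274, 1858 and 3264 CPM in the LFC pigs and 952, 1374 and 2962 CPM in the HFC pigs (log2 fold change -0.33, SE 0.21).

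The RPS genes with the most counts were RPS4X, RPS3, RPS3A and RPS27A. RPS4X, the X-linked form of a small subunit protein (58149198 to 58155188), had 1642, 2037 and 2724 CPM in the LFC pigs and 1286, 1675 and 2885 CPM in the HFC pigs. The fitted log2 fold change was -0.23 (SE 0.17). RPS3A (chromosome 8, 77889657 to 77893937) had 1193, 1653 and 3333 CPM in the LFC pigs and 877, 1252 and 3360 CPM in the HFC pigs (log2 fold change -0.29, SE 0.26). RPS27A is made as a fusion with ubiquitin (chromosome 3, 85988868 to 85992235). It had 991, 1493 and 3295 CPM in the LFC pigs and 769, 1104 and 3322 CPM in the HFC pigs (log2 fold change -0.29, SE 0.29). In RPS4X, RPS3A and RPS27A the highest pig of all was HFC5. Over the alternatives listed below, the log2 fold change ran from -0.34 to -0.16 for RPS4X and from -0.55 to -0.09 for RPS3A. For RPS27A it ran from -0.60 to -0.07.

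RPS29 (chromosome 1, 179454934 to 179456807) was one of the control genes to which the study scaled its qPCR values. It had a lowest, median and highest level of 179, 259 and 433 CPM in the LFC pigs and 149, 193 and 418 CPM in the HFC pigs, with 7 of 8 HFC pigs below the LFC median. The log2 fold change was -0.32 (SE 0.20, edgeR, adjusted p = 0.50), and the exact permutation test gave p = 0.129. Across all 16 pigs its SD was 0.44 on the log2 scale, near the median of 0.43 for the RPS genes.

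RPS21, a small protein of the small subunit, had in the fit of all 16 pigs the largest difference of the 48 and the largest spread. Its deposited ID lies on the unplaced scaffold AEMK02000452.1 (1167883 to 1168227) and spans 345 bases, the shortest of all members. The CPM were 14.6, 53.9 and 117 (lowest, median and highest) in the LFC pigs and 5.10, 21.9 and 115 in the HFC pigs. The 16 values fell into a low and a high cluster: LFC7, HFC3, HFC4, HFC7 and HFC8 lay between 5.10 and 14.6 CPM, and the others between 32.7 and 117 CPM. The log2 fold change was -0.82 (SE 0.54, edgeR, adjusted p = 0.505, exact permutation test p = 0.0536). Over the alternatives listed below it ran from -1.65 to -0.59. A separate gene on chromosome 17 (61763564 to 61764815), named RPS21 in the reference table, averaged 393 ± 147 CPM (SD, n = 8) in LFC and 339 ± 156 CPM (SD, n = 8) in HFC, and its log2 fold change was -0.22 (SE 0.24). Whether reads were divided between this gene and the scaffold gene was not tested, and no sequences were compared. The value of the scaffold gene is therefore uncertain, and other members with copies in the genome are open to the same doubt.

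RPS23, at the decoding centre, followed RPS3 with a log2 fold change of -0.41 (SE 0.27). Its CPM were 415, 611 and 1314 in the LFC pigs and 295, 433 and 1123 in the HFC pigs. At the other end of the RPS genes stood RPS18 (-0.14, SE 0.18), RPS13 (-0.18, SE 0.14) and RPS28 (-0.23, SE 0.18). RPS18 had 457, 602 and 961 CPM in the LFC pigs and 409, 555 and 920 CPM in the HFC pigs, so that its groups overlapped over most of their range. Over the alternatives listed below its log2 fold change ran from -0.24 to -0.03.

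The 3 RPL genes with the smallest differences in the 16 pigs were RPL26, RPL7L1 and RPL22. RPL26, which also binds the mRNA of p53, lies on chromosome 12 (53548315 to 53553455). It had 442, 541 and 803 CPM in the LFC pigs and 403, 480 and 931 CPM in the HFC pigs (log2 fold change -0.09, SE 0.17). RPL22 (chromosome 6, 67091106 to 67102112) had 257, 352 and 676 CPM in the LFC pigs and 197, 338 and 581 CPM in the HFC pigs (log2 fold change -0.12, SE 0.21). RPL7L1, a relative of RPL7 with a role in assembly (chromosome 7, 37940549 to 37950049), had 74.2, 77.2 and 93.3 CPM in the LFC pigs and 65.8, 71.6 and 90.9 CPM in the HFC pigs. The fitted log2 fold change was -0.11 (SE 0.09), and its highest HFC pig was HFC3 and not HFC5.

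Paralogue pairs were set side by side. RPL26 and RPL26L1 had log2 fold changes of -0.09 and -0.30, and RPL7 and RPL7L1 of -0.20 (SE 0.16) and -0.11. RPL22 stood at -0.12 beside -0.52 (SE 0.20, edgeR's unadjusted p = 0.0161, adjusted p = 0.413) for RPL22L1, which was no member and was named by its position on chromosome 13. RPS27 had -0.24 (SE 0.21) and RPS27L -0.19 (SE 0.16). The difference within a pair was not tested.

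The 48 genes lay on 15 chromosomes and 1 unplaced scaffold, with 8 on chromosome 6 and 6 on chromosome 4. The closest pair was RPS18 and RPS10, 792 kb apart on chromosome 7.

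Across the 16 pigs the members varied together. The median Pearson correlation over the 1128 pairs of genes was 0.92, within the RPL genes 0.93, within the RPS genes 0.92 and between the subunits 0.92. The pigs share library depth and scaling in all these values. Centred on the group means the median was 0.92, in the LFC pigs alone 0.93 (n = 8) and in the HFC pigs alone 0.93 (n = 8). Without LFC4, LFC6 and HFC5 it was 0.83 (n = 13). A correlation of at least 0.9 with the mean of the other members was found for 43 of the 48 members, and with the mean of the members for 525 of 13573 other genes (3.87%). The 5 members below 0.9 were RPL7L1 (0.65), RPS21 (0.73), RPL22 (0.85), RPL26L1 (0.86) and RPL37 (0.87).

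**Figure D3:**
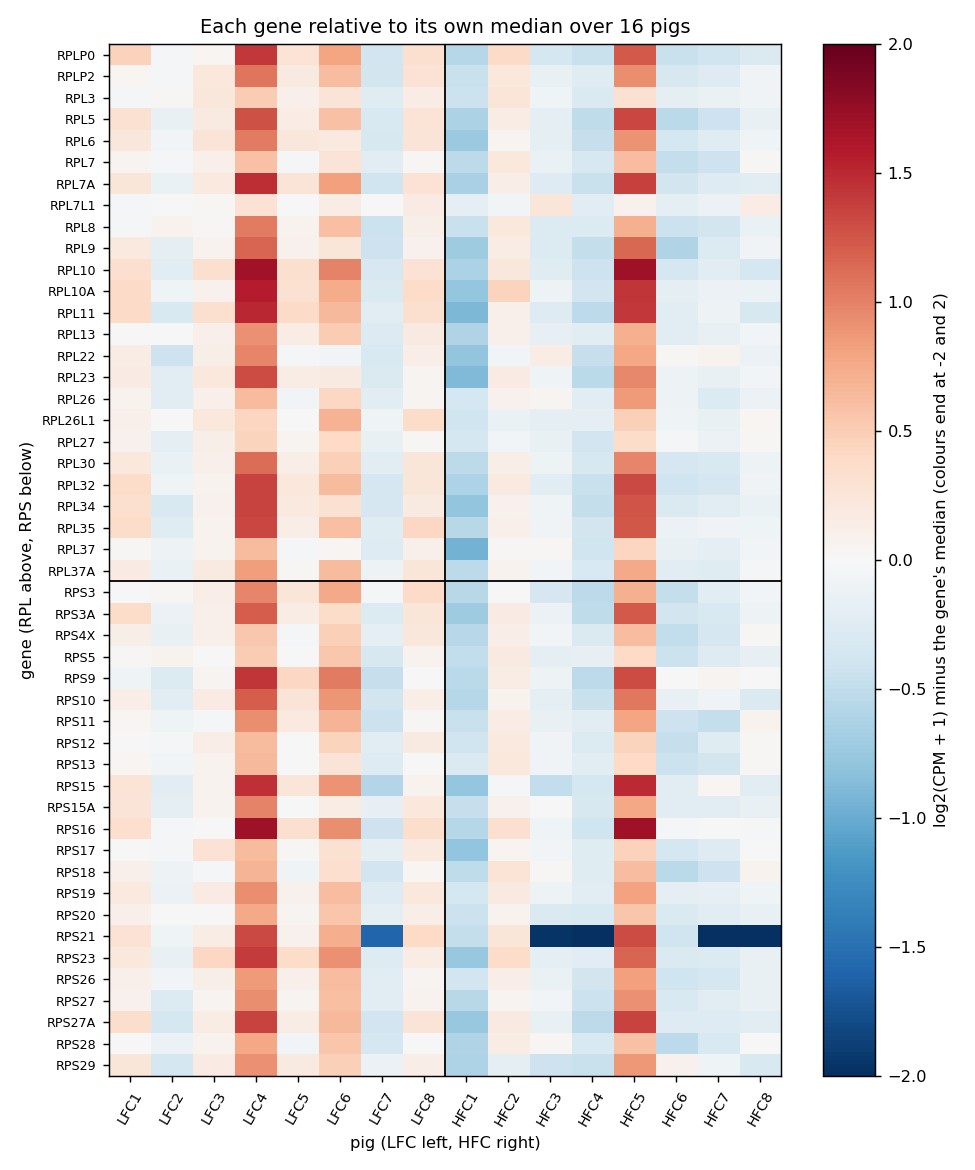
Level of each of the 48 genes (rows, RPL above the line and RPS below) in each of the 16 pigs (columns, LFC left and HFC right), as log2(CPM + 1) minus the median of the gene, in colour from -2 (blue) to 2 (red). LFC4, HFC5 and, less so, LFC6 are red over nearly all rows, HFC1 is blue, and RPS21 has 5 dark pigs of its own.

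The highest LFC pig was LFC4 at 46 of 48 genes, and the highest HFC pig was HFC5 at 47. The lowest LFC pig was LFC7 at 38 genes and the lowest HFC pig was HFC1 at 40. LFC4 was at 1.22 times (RPL7L1) to 3.25 times (RPS16) the median of a gene, with a median of 1.99 times. HFC5 was at 1.06 times (RPL7L1) to 3.23 times (RPS16) that median, with a median of 1.81 times. Genes that were far up in one of these pigs were far up in the other, with a correlation of 0.96 across the 48 genes, which are not independent. At the top of both were RPS16 (3.25 and 3.23 times) and RPL10 (3.17 and 3.19 times). Among the genes nearest to their median there, besides RPL7L1, were RPL3 (1.42 and 1.23 times), which lines the catalytic centre, and RPL27 (1.36 and 1.29 times).

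The spread of a gene over the 16 pigs, as the SD of log2(CPM + 1), had a median of 0.46 in the RPL genes, with a range of 0.15 (RPL7L1) to 0.71 (RPL10). In the RPS genes the median was 0.43 and the range 0.29 (RPS13) to 1.35 (RPS21). The median over the 4041 genes with a mean of at least 45 CPM was 0.25. When each gene was expressed relative to the mean of the members in the same pig, the median SD was 0.17, and RPL30 (0.05) and RPLP2 (0.07) followed that mean most closely. On this relative scale RPS3 was 1.41 ± 0.15 (SD, n = 8) in the LFC and 1.23 ± 0.11 (SD, n = 8) in the HFC pigs, a difference of -0.17. RPL26 was -0.41 ± 0.13 and -0.20 ± 0.12, a difference of 0.21. These values are descriptive.

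Some cell type markers were also high in the pigs with the highest members. HBB, the beta chain of haemoglobin and a marker of blood, was 1414 CPM in LFC4, 1033 in HFC5 and 642 in LFC6, and at most 805 CPM in the pigs other than LFC4 and HFC5. FSHB, the beta chain of the follicle stimulating hormone of gonadotrophs, was 6842 CPM in LFC4 and 7345 CPM in HFC5, and at most 4517 CPM in the others. For these 2 of the 20 markers found, LFC4 and HFC5 were the 2 highest pigs. GH1 was 38927 CPM in LFC4 and 29993 CPM in HFC5, ranks 12 and 14 of 16. Between the groups, 6 of the 20 markers had an unadjusted p up to 0.05 in edgeR, with 0 called. Of all genes tested, 4.41% were lower and 7.03% higher in the HFC pigs at that threshold. POMC (-1.23) and TBX19 (-0.53) of corticotrophs, CGA (-0.56) of glycoprotein hormone cells and ALAS2 (-0.93) of blood had a log2 fold change below 0 like the members, and PRL (1.27) and VWF (0.78), a marker of endothelium, one above 0. The part of these markers, of depth and of the slope with gene span in the levels of the members was not tested.

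Single libraries changed the size of the group difference. Without HFC5, 21 of 25 RPL and 19 of 23 RPS genes were lower in the HFC pigs at an unadjusted p up to 0.05, against 11.8% of all genes tested. The medians were then -0.46 for the RPL and -0.41 for the RPS genes, and the smallest adjusted p of a member was 0.0926 (RPS3, log2 fold change -0.62, edgeR). Without LFC4, 0 genes of either subunit had an unadjusted p up to 0.05, against 2.41% of all genes that were lower at that threshold. The medians were then -0.11 and -0.11, and 23 of 25 RPL and 22 of 23 RPS genes were below 0, against 50.0% of all genes. RPL22, RPL26 and RPS16 were then above 0, at 0.06, 0.01 and 0.04. Of the 48 members, 42 had a log2 fold change that shrank by more than 1.5 times or turned without LFC4, and 32 had one that grew by more than 1.5 times without HFC5.

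Without all 3 libraries of low weight, LFC4, LFC6 and HFC5, the 48 genes were again all below 0. The medians were -0.25 (RPL) and -0.22 (RPS), close to those of the full set. At an unadjusted p up to 0.05 there were 10 RPL and 7 RPS genes, a share of 35.4% of the members against 6.66% of all genes tested, and 0 genes were called. The 3 pigs left out were also the highest in the mean of the members, and this fit was added after seeing the data. The median SE of the members fell from 0.21 in the full set to 0.12 in this fit. The members still varied together (median correlation 0.83), so these are not separate observations, and the larger share was not tested as an enrichment. RPS3 had a log2 fold change of -0.42 (edgeR's unadjusted p = 0.00190, adjusted p = 0.238) and RPL26L1 one of -0.25 (unadjusted p = 0.00884, adjusted p = 0.251). RPL11 (-0.46), RPL10 (-0.41) and RPLP0 (-0.40) were the RPL genes with the largest differences in these 13 pigs.

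**Figure D4:**
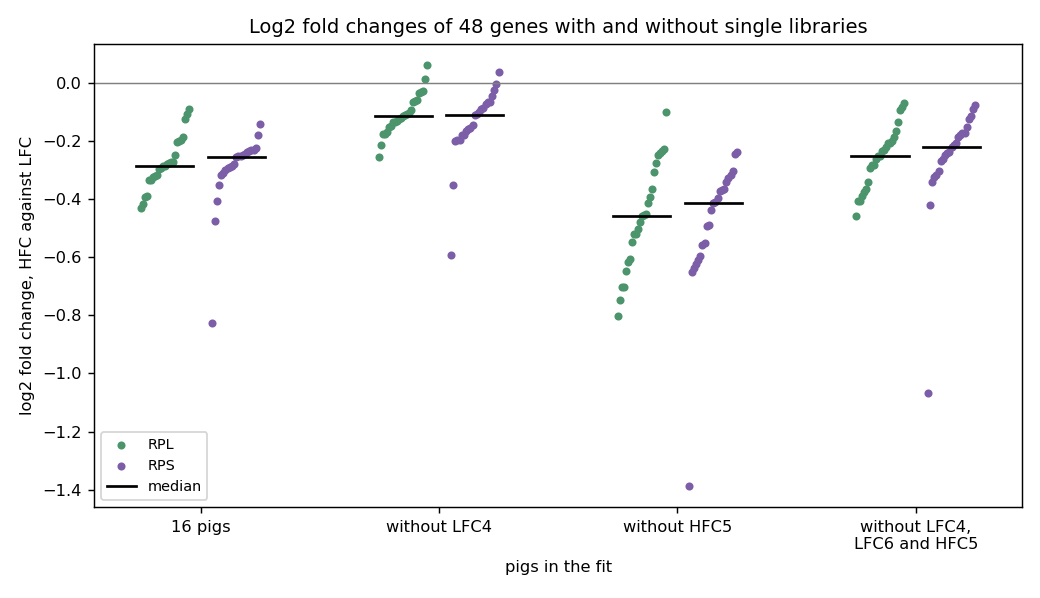
Log2 fold change (HFC against LFC) of the 25 RPL genes (green) and 23 RPS genes (purple) in the fit of 16 pigs and in fits without LFC4, without HFC5 and without LFC4, LFC6 and HFC5, with black lines at the medians. The RPL median moves from -0.28 to -0.11, -0.46 and -0.25.

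Other ribosomal protein genes outside the symbol rule were also lower on average. By deposited symbol, reference table or position, 34 further gene IDs of this family were tested, and 34 of 34 had a log2 fold change below 0, with a median of -0.29 and a range of -0.52 to -0.17. At that threshold there were 2, RPL22L1 and the RPL36A-HNRNPH2 locus (-0.30, edgeR's unadjusted p = 0.0462), against 4.41% of all genes. RPS6, the small subunit protein phosphorylated after growth signals, was named by position and had 1158 CPM in the LFC and 945 CPM in the HFC pigs on average, a log2 fold change of -0.29 (SE 0.16). Of ribosomal proteins with other symbols, RPSA (-0.35), RACK1 (-0.29) and RPL36AL with 2 IDs (-0.29 and -0.23) were found. An ID named RPL3 by position (chromosome 5, 8923674 to 8927953) lay within the span of the member RPL3 (8922653 to 8934282). It is therefore not a further gene of the family by name, and a division of reads between these IDs was not tested. Without LFC4 the 34 gene IDs were again all below 0, with a median of -0.17. In edgeR 1 (2.94%) was then lower at an unadjusted p up to 0.05, against 2.41% of all genes. Without the 3 libraries of low weight there were 16 (47.1%), against 6.66%, with a median of -0.25. Most of these genes also varied with the members across pigs, so they are not separate observations.

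Of 18 mRNAs of other proteins listed as carrying the same pyrimidine tract, 18 were below 0, with a median log2 fold change of -0.26. The tract itself was not looked for in pig sequences. Of all genes tested, 52.1% were below 0. In edgeR 3 of the 18 (16.7%) were lower at an unadjusted p up to 0.05, against 4.41% of all genes tested. These were the initiation factor subunits EIF3F (-0.27) and EIF3L (-0.23) and the nascent chain factor BTF3 (-0.27), with adjusted p-values in edgeR of 0.426 to 0.433. EEF1A1, which brings amino acids to the ribosome, averaged 12344 ± 2871 CPM (SD, n = 8) in LFC and 9646 ± 2644 CPM (SD, n = 8) in HFC, and its log2 fold change was -0.36 (SE 0.17). PABPC1 (-0.05) and HNRNPA1 (-0.04) were closest to 0. Without LFC4, 18 of 18 were again below 0, with a median of -0.17. In edgeR 1 (5.56%) was then lower at an unadjusted p up to 0.05, against 2.41% of all genes. Without the 3 libraries of low weight there were 12 (66.7%), against 6.66%, with a median of -0.24. Many genes of this list varied with the members across pigs, so these are not separate observations.

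Mitochondrial ribosomal proteins, which build the separate ribosome of that organelle, were below 0 at 73 of 74 genes, with a median log2 fold change of -0.22, and 17 (23.0%) were lower at an unadjusted p up to 0.05, against 52.1% below 0 and 4.41% lower at that threshold over all genes tested. Genes of ribosome assembly were at 29 of 52 gene IDs (55.8%) below 0, near the 52.1% of all genes, with a median of -0.04. The 52 IDs stood for 50 genes, as LTV1 and WDR43 had 2 IDs each. At an unadjusted p up to 0.05, 4 of them (7.69%) were lower and 2 higher, against 4.41% and 7.03% of all genes. The lower ones were NOP10 (-0.34), NIP7 (-0.31), NLE1 (-0.31) and WDR12 (-0.23), and the higher ones were the assembly ATPase MDN1 (0.58) and POLR1A (0.48), the large subunit of the polymerase for ribosomal RNA. None of the genes of these lists was called. Without LFC4, 29 of the 52 assembly IDs were again below 0. In edgeR 4 (7.69%) were then lower and 0 higher at an unadjusted p up to 0.05, against 330 and 683 of 13695 genes. Without the 3 libraries of low weight these were 5 (9.62%) and 2, against 915 and 1056 of 13732 genes. Without HFC5, 24 of 52 (46.2%) were below 0, against 48.2% of all genes. Without LFC4, 67 of 74 mitochondrial ribosomal protein genes were below 0, against 50.0% of all genes, with a median of -0.14. In edgeR 5 (6.76%) were then lower at an unadjusted p up to 0.05, against 2.41% of all genes. Without the 3 libraries of low weight there were 22 (29.7%), against 6.66%, with a median of -0.17. Many genes of this list varied with the members across pigs, so these are not separate observations.

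**Figure D5:**
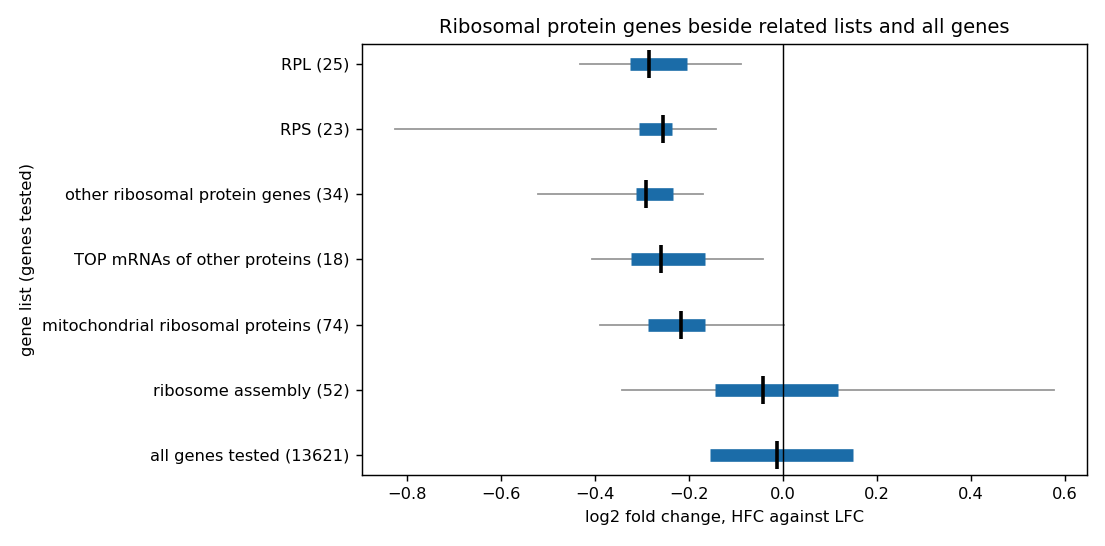
Median (black mark), middle 50% (blue bar) and, except for all genes, full range (grey line) of the log2 fold change (HFC against LFC) in each list, with the number of genes tested in parentheses. The RPL (-0.28) and RPS (-0.25) medians lie with those of the other ribosomal protein genes (-0.29) and the TOP mRNAs (-0.26), which were listed as carrying the pyrimidine tract. The median of the mitochondrial ribosomal proteins (-0.22) is also below 0, while ribosome assembly (-0.04) lies near all genes (-0.01).

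The 10 other genes whose level over the 16 pigs was most like the mean of the members had correlations of 0.99. Among them were RPL4, RPL39 and RPL19, which are ribosomal proteins named outside the rule, the elongation factor subunit EEF1B2, the initiation factor subunit EIF3H, the proton pump subunit ATP6V1G1, the membrane fusion protein VTI1B, the mitochondrial protein MINOS1 and ENSSSCG00000007524, which had no name. Their log2 fold changes were between -0.36 and -0.24.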

How the data were processed

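RNA of whole pituitaries of 16 Złotnicka White gilts was sequenced without strand information. The authors trimmed the reads with Flexbar, mapped them to Sscrofa11.1 and its Ensembl genes (the notes name STAR and RSEM) and deposited whole-number counts per gene and pig, without normalization. Their comparison table, which also holds fold changes and p-values, was used only for symbols and for the other deposited columns, the gene starts and ends on Sscrofa11.1. Every count column was matched to a pig by its title. The other breed of the study was not analysed here.

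Counts were scaled by TMM in edgeR 4.0.16 (R 4.3.3), and 13621 genes that passed its expression filter were tested by the quasi-likelihood F test with Benjamini-Hochberg adjustment over all of them. A call needed an adjusted p up to 0.05 with a 1.3-fold difference or more. A positive log2 fold change is higher in HFC. CPM are TMM-scaled, and log2 values have a pseudocount of 1. Single genes were compared by exact two-sided permutation over 12870 splits. Other genes of the family were named by the deposited symbol, by the reference table, or by position when a single RefSeq gene on that assembly shared 50% or more of each span. Only the edgeR test was tried on simulated data, in which genes varied independently and no library stood apart.

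Members named with values were the 4 RPL and 4 RPS genes with the highest mean CPM, the 3 with the lowest and the 3 with the highest log2 fold change in each subunit, the stalk proteins, RPL5, RPL11, RPS27A, RPS29 and the paralogue pairs. RPS6, which the rule also listed, was no member. Others (RPS16, RPL3, RPL27, RPL30 and RPL37 among them) were named after their values were seen. A few genes of the lists are not reported here. The members and lists were chosen with earlier results of these data known.

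Totals per pig were 6010629 to 11794256 counts, and each member had at least 56 counts in every pig. Within a group no libraries were duplicates (chi-square per degree of freedom 11.4 to 85.9). Alternatives were DESeq2 1.42.0, limma 3.58.1 voom with sample quality weights, 3 other scalings, 3 other filters, a replicate block, another prior count and pseudocount, and each pig left out. The fit without the 3 libraries of lowest weight was added after seeing the data. Exon lengths and sequences were not used here, so levels were not compared between genes and no promoter motif was searched. Python 3.11.15, numpy 2.4.6, pandas 2.3.3, scipy 1.17.1 and matplotlib 3.10.9 were used for the rest.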

Additional observations from a re-analysis of the deposited data

Results flagged for a closer look

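In 14 of 52 groups of 8 pigs examined (22 named members, the 2 subunit means, their difference and the share of counts, in each group), 1 pig stood apart from the other 7 by Dixon's criterion, which chance meets in about 1 of 20 groups. The members vary together, so these are not separate observations. HFC5 stood above the other HFC pigs in log2(CPM + 1) of RPL5 (11.94), RPL7A (12.35), RPL10 (12.17), RPL11 (11.03), RPL26 (9.86), RPS3 (11.34), RPS3A (11.71), RPS27A (11.70) and RPS29 (8.71), and in the share of counts on the members (6.82%). LFC4 stood above the other LFC pigs in RPL6 (11.67), RPL22 (9.40) and RPS3A (11.70). LFC6 stood below the other LFC pigs in the RPL mean minus the RPS mean (-0.15).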

How the results depend on the processing

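In every alternative run the medians stayed below 0 and 0 members were called. The counts of members with an unadjusted p up to 0.05 (1 RPL and 1 RPS in edgeR) were 3 and 5 with limma voom and sample quality weights (9.01% of all genes were lower at that threshold), 2 and 5 with scaling by total library size (5.51%), and 10 and 7 without the 3 libraries of lowest weight (6.66%). DESeq2 called 29 of all genes in place of 0. When single pigs were left out, these counts ran from 0 to 21 (RPL, 21 without HFC5) and from 0 to 19 (RPS, 19 without HFC5), and the medians from -0.46 to -0.11 (RPL) and from -0.41 to -0.11 (RPS). The log2 fold change of RPL22 then ran from -0.25 (without HFC5) to 0.062 (without LFC4) and that of RPL26 from -0.23 (without HFC5) to 0.012 (without LFC4), both reversed without LFC4. The cause of these shifts was not tested. Over all 594 values of the 22 named members under the alternatives, 592 were below 0 and 0 were called. With the replicate number as a block, 1 RPL and 2 RPS genes reached an unadjusted p up to 0.05 (3.65% of all genes), with medians of -0.30 and -0.28. The same-numbered pigs share only a number: their deviations from the group means correlated between -0.34 and 0.37, over 0.1 in 3 of 8 pairs, and 0 LFC pigs and 1 HFC pig were most like the pig of their own number in the other group. The median standard error of the members was 0.21 with 16 pigs and 0.12 without the 3 libraries of lowest weight.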
